A study of Mus musculus with 12 samples.

Results

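The Oas, Mx and viperin genes make proteins that block virus growth inside a cell. The members were taken by symbol: Oas1a, Oas2, Oas3, Oasl1, Oasl2, Mx1, Mx2, Rsad2 and Cmpk2. All 9 were found among the 25919 rows of the table, and all 9 passed the filter on low counts, as did 9852 rows in all. Poly(A) RNA of liver from C57BL/6 mice aged 7 weeks had been sequenced in bulk from the 3' end, for 12 libraries in 4 groups. Counts of 2 groups are read here by gene: 4 libraries labelled CD40 at day 2, after the receptor CD40 of antigen-presenting cells, and 2 labelled Kupffer cells, the resident macrophages of liver, at day 0. The labels name no treatment, no genetic change and no event from which the days count, so cell label and day differ together. Group names use cell markers, such as Ly6C CD40-negative, but the labels name no sorting step. Nothing says that each library came from its own animal, and p-values therefore measure the spread between libraries, which may be technical. The columns of the other 2 groups, Kupffer cells at day 7 and Ly6C CD40-negative at day 2, stand in an order that does not seem to follow the gene names and were not read by gene.

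Interferons switch these genes on through the receptor kinases Jak1 and Tyk2 and through Irf9, part of a complex that binds a short DNA element in the promoters of responding genes. Oas1a, Oas2 and Oas3 are synthetases that sense double-stranded RNA and make 2'-5'-linked oligoadenylates, a second messenger of the antiviral response. Oasl1 and Oasl2 are related proteins with ubiquitin-like domains, and Oasl1 is known to restrain translation of Irf7. Mx proteins are dynamin-like GTPases that trap viral nucleoproteins. Viperin, made by Rsad2, is a radical SAM enzyme that turns CTP into a chain-terminating nucleotide, and Cmpk2, the kinase beside it, supplies CTP. In macrophages these genes are known to be induced by interferon.

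The members lie in 4 clusters of the GRCm38 genome (GENCODE M21). On chromosome 5, Oas2 (120730333 to 120749853), Oas3 (120753098 to 120777661) and Oas1a (120896256 to 120907521) share the minus strand, with the Oas1c, Oas1b and Oas1g paralogs between them. Oasl2 (114896936 to 114912234) and Oasl1 (114923240 to 114937915) lie on the plus strand of the same chromosome. Mx1 (97447035 to 97462907, minus strand) and Mx2 (97535308 to 97560900, plus strand) lie on chromosome 16. Fam3b and Gm9242 lie between these Mx genes. On chromosome 12, Rsad2 (26442746 to 26456452, minus strand) and Cmpk2 (26469204 to 26479837, plus strand) point away from each other with 12751 bases between them. RefSeq classes both Mx genes as transcribed pseudogenes in this strain, whereas GENCODE classes Mx1 as protein coding and Mx2 as a polymorphic pseudogene. Laboratory strains such as C57BL/6 are known to carry defective Mx genes, so their transcripts are read here as RNA only. The predicted gene Gm43068 overlaps Oas2 on the other strand, and Gm13822 overlaps Oasl1 likewise. Whether the counts used strand is not given in the sources used here.

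Promoter sequences were available for 6 members (Oas1a, Oas3, Oasl1, Oasl2, Rsad2 and Cmpk2; RefSeq, GRCm38.p6), from 250 bases before to 50 after each start. The core of the interferon-stimulated response element, GAAA followed by any 2 bases and GAAA again, was searched on both strands. It occurred in 3 of the 6 (Oas1a, Oas3 and Rsad2), against 3.44% of 32851 promoters of this length. The 130 bases before the start are shown for these 3 because they hold the element near that start in a pair of synthetases and in viperin. The RefSeq genes of Oas1a and Oas3 reach past the start used, to 120907544 and 120777684. Part of each of these 2 stretches thus lies within the gene, as does the Oas1a match nearer the start. They are written 5' to 3' on the gene's own strand, with each match in capitals.
Oas1a, chr5:120907526-120907655, minus strand: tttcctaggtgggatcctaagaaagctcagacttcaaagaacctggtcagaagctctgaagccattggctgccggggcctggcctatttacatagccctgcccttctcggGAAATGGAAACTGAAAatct
Oas3, chr5:120777660-120777789, minus strand: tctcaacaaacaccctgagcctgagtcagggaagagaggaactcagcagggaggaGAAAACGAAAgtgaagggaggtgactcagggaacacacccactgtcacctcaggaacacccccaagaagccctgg
Rsad2, chr12:26456453-26456582, minus strand: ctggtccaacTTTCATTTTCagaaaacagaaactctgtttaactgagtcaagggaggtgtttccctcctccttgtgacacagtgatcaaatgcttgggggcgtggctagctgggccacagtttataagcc

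In Oas1a the capitals hold a pair of matches that overlap by 4 bases, from position -20 to -11 and from -14 to -5 before the start. The Oas3 match lies at -75 to -66. The Rsad2 match lies at -120 to -111 and reads GAAAATGAAA on the other strand. A second element, TTCNNNGAA, known as the gamma-activated sequence, occurred in the windows of 1 member, Oas1a (TTCAAAGAA at -98 to -90), and in 8.3% of all promoters. No match says only that these letters are not in the window. The RefSeq genes of Oasl1 (from 114923143), Oasl2 (from 114896926) and Cmpk2 (from 26469117) begin before the start used, so their windows cover less sequence upstream of the gene.

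Libraries are called by their group and a letter in table order. The Kupffer day 0 libraries held 1612435 and 688498 counts, and those of CD40 day 2 between 725683 and 2271228. The 9 members together held 556 and 217 counts in Kupffer day 0 a and b, and 745 to 2783 in CD40 day 2. Levels are CPM relative to the TMM-adjusted library total. They are not divided by gene length, since each read comes from a transcript's 3' end. The mean level of Cd40 was 330 ± 72.6 CPM (SD, n = 4) in the libraries labelled CD40, against 19.1 ± 1.41 (n = 2). Of 9 Kupffer cell markers, 8 were lower and 0 higher in CD40 day 2, and their summed level was 4241 to 4734 CPM in Kupffer day 0 and 90.5 to 116 in CD40 day 2. All 12 endothelial markers were also lower, with sums of 16668 to 17526 CPM in Kupffer day 0 and 437 to 1034 in CD40 day 2, and none of them was at 0 in either group. Of 10 classical monocyte markers, 8 were higher (sums 1460 to 1630 against 16690 to 23783 CPM). Stellate markers (9 of 9 tested lower, sums 1774 to 2150 against 50.9 to 129 CPM, Col1a1 at 0 in CD40 day 2) and hepatocyte markers (7 of 8 lower, 558 to 1309 against 113 to 245 CPM) also moved. Of 9 conventional dendritic cell markers tested, 4 were higher and 1 lower (160 to 224 against 708 to 1399 CPM, Htr7 at 0 in Kupffer day 0). Much of that sum in CD40 day 2 was Naaa, at 551 ± 63.1 against 25.9 ± 3.15 CPM. Zbtb46 was the lower gene, and Xcr1, Ccr7, Flt3 and Clec9a were not called. Of 9 neutrophil markers tested, 1 was higher and 0 lower, with sums of 914 and 3082 CPM in Kupffer day 0 and 983 to 1890 in CD40 day 2. Of 3 plasmacytoid dendritic cell markers tested, 1 was lower and 0 higher. The 3 T and NK cell markers and 1 B cell marker tested were not called. Markers of several other cell types thus move with the comparison, and the part of all these markers in the members' values was not tested. In bulk RNA, fewer cells of a type and less RNA per cell cannot be told apart.

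As a group, 7 of the 9 genes were higher in CD40 day 2 and 0 were lower, at an adjusted p under 0.05 in edgeR's quasi-likelihood test. Over all 9852 genes tested, 23.2% were higher and 30.2% lower, 53.4% in all. The median log2 fold change of the members was 2.07, beside -0.10 over all genes tested. All 4 CD40 libraries lay above both Kupffer libraries for the same 7 genes, which held for 29.7% of all genes tested. The summed level of the 9 was 302 to 319 CPM in Kupffer day 0 and 1054 to 1282 CPM in CD40 day 2. As a share of all counts, they took 0.0345% in Kupffer a (exact 95% binomial interval 0.0317% to 0.0375%) and 0.0315% in Kupffer b (0.0275% to 0.0360%). In CD40 day 2 the share ran from 0.103% (0.0954% to 0.110%) to 0.123% (0.118% to 0.127%). These intervals cover counting error only. With 2 libraries against 4, no exact permutation p can fall under 0.067, so the calls rest on the spread that the model shares across genes.

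**Figure D1:**
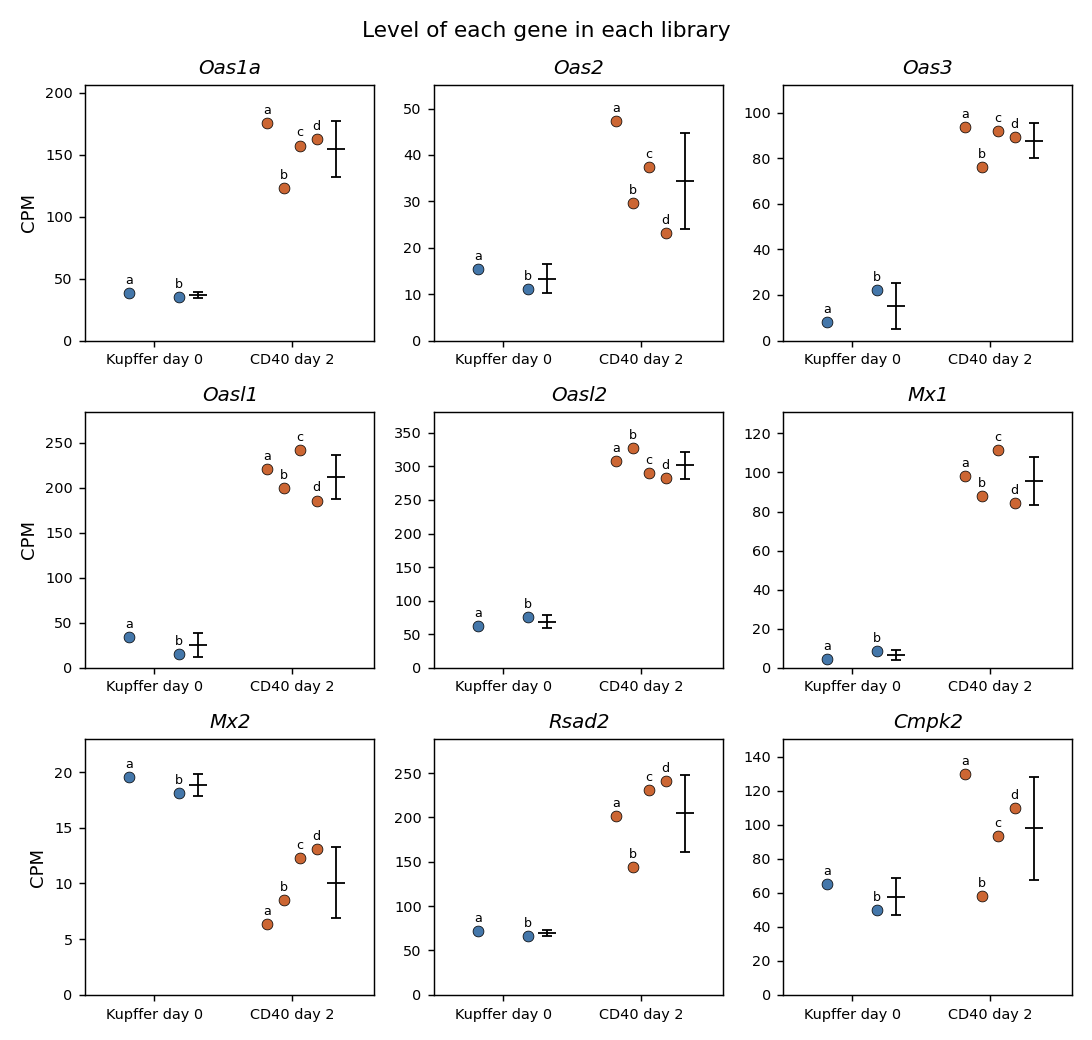
Level of each of the 9 genes (CPM, linear axis from 0) in each library, with letters naming the library and the bar giving mean ± SD of the group (n = 2 and n = 4). The groups are separate for 8 genes, with Mx2 as the gene whose CD40 libraries lie below, and overlap for Cmpk2.

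Among the RNA-sensing synthetases, Oas1a was at 38.5 and 34.8 CPM in Kupffer day 0 and at 176, 123, 157 and 163 CPM in CD40 day 2. All CD40 libraries were high, with b the lowest of them. The log2 fold change was 2.07 ± 0.22 (SE; adjusted p = 3.81e-05). Oas1a has a close copy, Oas1g, and the last 400 bases of their annotated transcripts align over 283 bases with 96.5% identity, so 3' reads of one may be counted for the other. Oas1g was itself higher, at 52.9 ± 7.17 against 8.77 ± 0.587 CPM (2.57 ± 0.28, adjusted p = 4.38e-05), and the summed counts of both gave 2.18 ± 0.21.

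Oas3, the longest synthetase of the family, was at 8.04 and 22.3 CPM in Kupffer day 0 and at 93.8, 76.4, 91.9 and 89.4 in CD40 day 2. The CD40 libraries lay close together, whereas the Kupffer values rested on 14 and 16 counts and differed 2.77-fold. The log2 fold change was 2.73 ± 0.35 (adjusted p = 0.00013), or 3.45 without Kupffer b and 1.98 without Kupffer a, and the gene was called in both cases. Oas2, its neighbour, was at 15.5 and 11.1 CPM against 47.3, 29.7, 37.3 and 23.2 CPM. The groups did not overlap, and the lowest CD40 library was d. Its change of 1.30 ± 0.36 (adjusted p = 0.0117) was not called without Kupffer a (adjusted p = 0.0609) or without Kupffer b (0.0742; range over the alternatives 0.00107 to 0.0742).

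Of the Oas-like genes, Oasl2 was at 61.4 and 75.2 CPM in Kupffer day 0 and at 308, 327, 290 and 283 in CD40 day 2, the narrowest spread of the 9 genes in CD40 day 2 (coefficient of variation 6.53%). It changed by 2.16 ± 0.18 on the log2 scale (adjusted p = 1.05e-05). Oasl1 was at 34.4 and 15.3 CPM against 221, 199, 242 and 186 CPM. The Kupffer libraries differed here too, and the exact 95% Poisson intervals of their counts, 26.3 to 44.3 CPM for a and 7.65 to 27.4 CPM for b, met only at their ends. The log2 fold change of Oasl1 was 2.98 ± 0.29 (adjusted p = 2.52e-05), 3.78 without Kupffer a and 2.62 without Kupffer b.

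The Mx pair showed opposite signs. Mx1 was at 4.59 and 8.36 CPM in Kupffer day 0, from 8 and 6 counts, and at 98.3, 87.7, 112 and 84.6 CPM in CD40 day 2. All CD40 libraries were far above both Kupffer libraries. This was the largest fold of the 9 genes, 16.2-fold (log2 4.02 ± 0.31, adjusted p = 5.77e-06). Mx2 was at 19.5 and 18.1 CPM against 6.37, 8.49, 12.3 and 13.1 CPM, so that all CD40 libraries lay below both Kupffer libraries, as they did for 36.9% of all genes tested. Its log2 fold change of -0.84 ± 0.35 did not pass the test (adjusted p = 0.0677). It passed when scaled by library totals (-1.01, adjusted p = 0.0359) and with a minimum of 10 counts in 4 libraries (-0.96, adjusted p = 0.0357; range over the alternatives 0.0357 to 0.295).

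Rsad2, which encodes viperin, was at 71.8 and 66.8 CPM in Kupffer day 0 and at 201, 144, 231 and 241 CPM in CD40 day 2. The Kupffer libraries were alike and library b was again the lowest CD40 library. The change was 1.56 ± 0.24 on the log2 scale (adjusted p = 0.000408). Cmpk2 was at 65.5 and 50.1 CPM against 130, 58.0, 93.3 and 110 CPM. Here the groups overlapped, since CD40 library b lay between the Kupffer libraries. Its log2 fold change of 0.75 ± 0.30 did not pass the test (adjusted p = 0.0568). Without CD40 library b it was 0.97 and passed (adjusted p = 0.00264; range over the alternatives 0.00264 to 0.27).

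**Figure D2:**
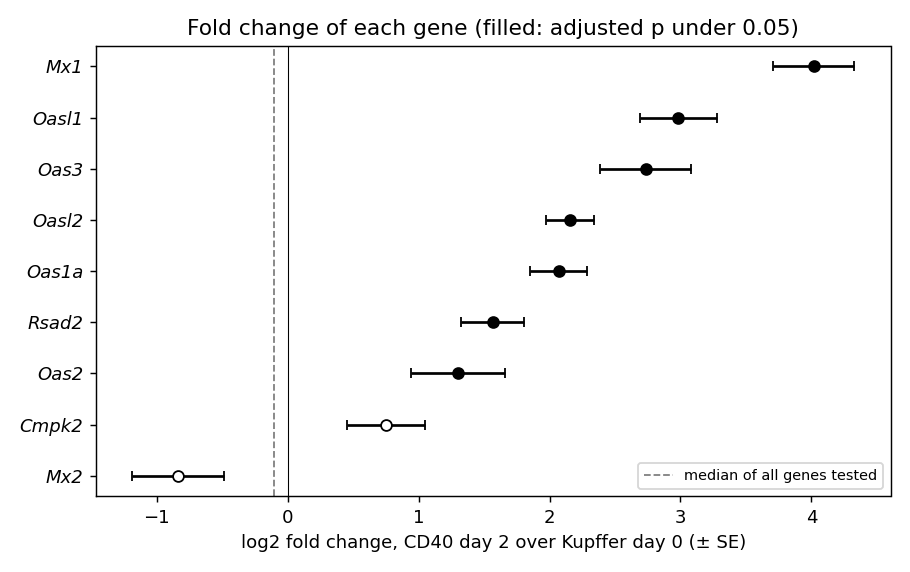
log2 fold change of CD40 day 2 over Kupffer day 0 for each gene (x axis) with its standard error, filled where the adjusted p was under 0.05, and the median of all genes tested (-0.10) as a dashed line. Mx1 lies farthest right at 4.02, and the open symbols are Cmpk2 at 0.75 and Mx2 at -0.84.

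The makeup of the group's counts differed between the labels. Cmpk2 supplied 16.6% and 20.5% of the 9 genes' summed counts in Kupffer day 0 and 5.5% to 10.2% in CD40 day 2. Rsad2 supplied 22.1% and 22.5%, against 13.7% to 20.2%. The share of Oasl1 was 5.07% and 10.8% in Kupffer day 0 and 15.6% to 19.1% in CD40 day 2, and that of Mx1 1.44% and 2.76% against 7.09% to 8.80%. Mx2 made up 5.99% and 6.12%, against 0.497% to 1.10%. Viperin, its kinase and Mx2 thus took smaller shares in every CD40 library than in either Kupffer library, and Oasl1 and Mx1 larger ones. The share of Oas1a was 11.5% and 12.1% against 11.7% to 13.7%, so the groups overlapped.

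**Figure D3:**
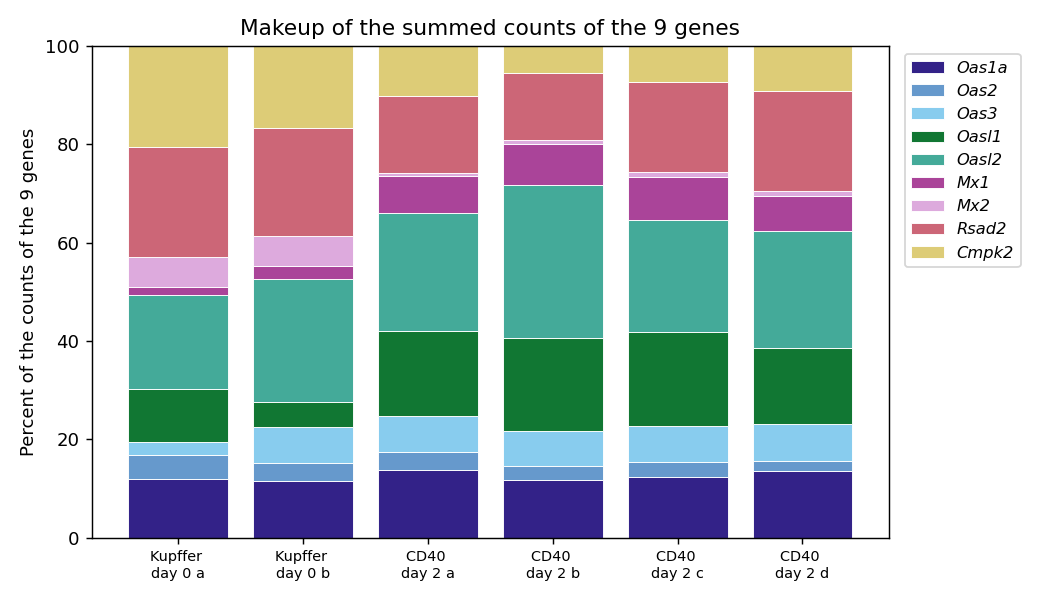
Percent of the summed counts of the 9 genes taken by each gene (stacked bars, 1 bar per library). The 2 Kupffer bars have wider Cmpk2 (16.6% and 20.5%) and Mx2 segments, and the 4 CD40 bars wider Oasl1 and Mx1 segments.

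Ratios of counts between members of the same cluster do not depend on how libraries are scaled. For these, 4 such pairs were compared, chosen after their values had been seen. The Mx1 to Mx2 ratio was 0.235 and 0.462 in Kupffer day 0 and 15.4, 10.3, 9.07 and 6.45 in CD40 day 2. Its mean log2 difference was 4.90, with SDs of 0.69 (n = 2) and 0.52 (n = 4), and the groups did not overlap. As the pairs were chosen from these values, no test is given. The Mx1 to Mx2 ratios rest on few counts. Mx2 had 34 and 13 in Kupffer day 0 and 7, 6, 27 and 22 in CD40 day 2, and Mx1 had 8 and 6 in Kupffer day 0. The Rsad2 to Cmpk2 ratio was 1.10 and 1.33 against 1.55, 2.49, 2.48 and 2.19, so viperin outweighed its neighbour more in all CD40 libraries. That difference was 0.82 in log2. For Oasl1 to Oasl2 the ratio was 0.561 and 0.204 against 0.610 to 0.836, also without overlap. For Oas3 to Oas2 the ratio was 0.519 and 2.00 against 1.98 to 3.85, where the groups overlapped.

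Within CD40 day 2 the members varied by a median coefficient of variation of 14.5%. The median was 20.8% over the 6639 genes with mean levels in the members' range, 10.1 to 302 CPM. Levels were not matched gene by gene. Library b lay below the group's mean log2 level for 8 of the 9 genes, Oasl2 being the exception, and held the lowest value for 4. The conventional dendritic cell markers Ccr7 (259 CPM against 12.5 to 68.3) and Xcr1 (86.3 against 5.96 to 14.6) were highest in the same library, and their part in the members' values was not tested. Of 37 other interferon-stimulated effectors, 26 stood above their group mean in library b, as did 4752 of all 9852 genes tested. Library d held the lowest value for another 4 members, but 5 of the 9 lay above their group mean there (median deviation 0.028 in log2). In that library 29 of the 37 effectors stood below their mean, as did 4820 of all genes tested.

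By the rule for alike patterns, the 5 genes whose log2 levels followed the members' mean most closely over the 6 libraries were Pkm, a glycolytic pyruvate kinase, Tifab, an adaptor related to Tifa, Psmb10, an immunoproteasome subunit, Cisd2, an iron-sulphur protein, and Csf2rb, a receptor chain for GM-CSF. Their Pearson r was 0.999 each, over 6 libraries that differ mainly by group, and 148 of the 5669 genes compared had an r above 0.99. Tifab, for example, was at 253 ± 32.6 against 28.7 ± 0.787 CPM, and Cisd2 at 292 ± 14.8 against 178 ± 3.79. Pearson r does not measure the size of a change, which was 3.15 in log2 for Tifab and 0.71 for Cisd2. Each member was also compared with the mean of the other 8. Oas1a followed it most closely (r = 0.996), Cmpk2 less (0.712), and Mx2 ran against it (-0.811).

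Upstream of the members, 3 of 10 listed genes of type I and III interferons had a row, and these 3 were barely seen. Ifnb1 had 0 counts in both Kupffer libraries, which allows up to 1.72 and 4.18 CPM, and 3, 0, 31 and 0 counts in CD40 a to d, so 1 library held nearly all of them. It did not pass the filter, and Ifna2 and Ifnk had 0 counts in all 6 libraries. The other 7 listed ligands had no row under the symbols searched, so nothing can be said of their levels. Library c, which held the 31 counts, was the highest CD40 library for Oasl1 and Mx1 and for no other member, and the lowest for 0. It stood above the group's mean log2 level for 7 of the 9 members (median deviation 0.159), and library a for 8 (0.067). Any tie between Ifnb1 and the members was not tested.

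Of 11 receptor and transducer genes tested, 4 were higher in CD40 day 2 and 3 lower. Beside this count and those of the lists that follow stand 23.2% higher and 30.2% lower over all genes tested. Tyk2 was higher, at 53.7 ± 5.66 against 21.5 ± 2.86 CPM (SD, n = 4 and 2). Jak1 was lower, at 229 ± 33.2 against 1039.7 ± 69.8 CPM, as was Il10rb, a shared chain of the lambda interferon receptor, at 177 ± 30.9 against 316 ± 2.46. Irf9, the DNA-binding factor of the interferon response, was singled out after its values were seen: it was at 121 ± 19.3 against 115 ± 14.7 CPM and was not called (adjusted p = 0.767). Among 6 interferon regulatory factors, Irf5 (687 ± 23.4 against 88.7 ± 5.29 CPM), Irf7 (1915 ± 368 against 279.9 ± 15.8) and Irf8 (549.6 ± 121 against 240.0 ± 20.3) were higher and Irf3 (71.2 ± 9.11 against 131 ± 26.2) was lower. The Irf3 call was lost without Kupffer a (adjusted p = 0.0760, the highest over its alternatives, which began at 0.000643). Irf7 is the factor whose translation Oasl1 is known to restrain.

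Among 6 negative regulators of interferon signalling, 3 were higher and 2 lower. The phosphatase Ptpn6 was at 1010.4 ± 70.1 against 113 ± 1.18 CPM, Usp18, which removes Isg15 and blocks the interferon receptor, at 402 ± 121 against 50.7 ± 12.7, and Ptpn2 at 112 ± 2.08 against 49.0 ± 3.55. Pias1 was lower (37.8 ± 9.12 against 58.2 ± 9.44 CPM, adjusted p = 0.0434), but this did not hold under 7 of 12 alternatives (adjusted p 0.0185 to 0.340), among them those without Kupffer a, Kupffer b, CD40 a, CD40 c or CD40 d. Of 13 sensors and adaptors of foreign nucleic acids, 10 were higher and 2 lower. Zbp1 was at 1121 ± 91.7 against 75.7 ± 2.61 CPM, Ikbke, a kinase that activates interferon regulatory factors, at 105 ± 26.7 against 8.20 ± 0.225, Dhx58 at 122 ± 18.5 against 23.9 ± 4.31, and the adaptor Myd88 at 671 ± 38.9 against 168 ± 34.4.

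Among 37 other interferon-stimulated effectors, 20 were higher and 2 lower, with a median log2 fold change of 1.08. Samhd1, which depletes nucleotides, was at 865 ± 114 against 141 ± 0.409 CPM, Isg15 at 1065 ± 144 against 183 ± 6.70, and Ifi27l2a at 5529.7 ± 424 against 643 ± 3.86. Ifi27 went the other way, at 64.1 ± 2.83 against 335 ± 16.6 CPM, so Mx2 was not the only interferon-stimulated gene with a negative fold change. In this list 14 of 33 genes with a promoter sequence held the response element core in at least 1 promoter window, beside 3 of 6 members and 3.99% of all 27025 genes.

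Oas1b, a paralog known to be truncated in laboratory strains, was at 5.41 ± 2.89 against 7.67 ± 2.96 CPM and was not called (adjusted p = 0.423). Of 6 viperin partners and iron-sulphur assembly genes, Fam96a (277 ± 23.9 against 72.1 ± 31.1 CPM) and Fam96b (345 ± 89.0 against 118 ± 11.1) were higher, and Traf6 (20.6 ± 2.90 against 12.2 ± 1.46) and Ciao1 (34.4 ± 2.97 against 39.5 ± 7.15) were not called.

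Of 9 other pyrimidine nucleotide kinases, 5 were higher and 0 lower. Cmpk1, the cytosolic counterpart of Cmpk2, was at 238 ± 37.7 against 96.3 ± 14.1 CPM (1.30 ± 0.21, adjusted p = 0.000529), Dck at 147 ± 47.8 against 27.1 ± 5.02, and Nme1 at 356 ± 43.8 against 171 ± 6.06. Uck2 averaged 9.29 ± 5.14 against 1.68 ± 1.56 CPM (adjusted p = 0.0322), which did not hold under 3 of 11 alternatives, those without Kupffer a, Kupffer b or CD40 a (adjusted p 0.00284 to 0.343 over all 11). Of 7 other dynamin superfamily GTPases, relatives of Mx, 1 was lower, the mitochondrial fusion gene Mfn1 (3.10 ± 1.5 against 9.22 ± 3.20 CPM, adjusted p = 0.0195), and 0 were higher. The Mfn1 call was lost with DESeq2 (adjusted p = 0.110; range over its 8 alternatives 0.0116 to 0.110). Dnm1l (63.7 ± 8.09 against 79.2 ± 5.69 CPM) and Dnm2 (131 ± 8.09 against 159 ± 8.21) were not called.

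**Figure D4:**
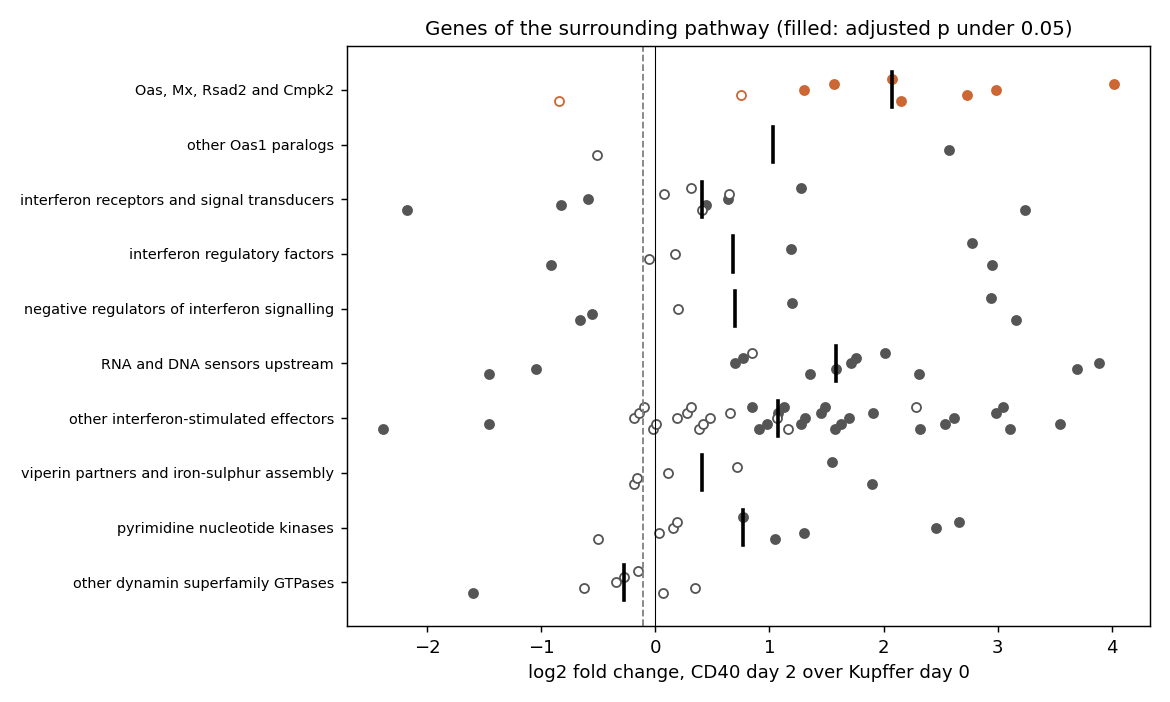
log2 fold change of CD40 day 2 over Kupffer day 0 (x axis) for each tested gene of the members and of 9 related lists (rows), filled where the adjusted p was under 0.05, with a thick bar at each list's median and a dashed line at the median of all genes tested. The members' median is 2.07 and that of the other interferon-stimulated effectors 1.08.

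The listed genes nearest to the clusters did not share one direction. The 3 nearest on each side of each cluster, 24 in all, were read from the same fit. They lay from 3782 (Tmprss2) to 2151017 bases (Rps7) from their cluster. Of the 24, 11 passed the filter, with 3 higher, 5 lower and 3 not called. Over all genes tested, 23.2% were higher and 30.2% lower. Colec11, among the lower, lay 2114336 bases from its cluster and is also one of the stellate markers. Bace2, a protease gene 4099 bases from Mx1, was at 6.37 ± 6.81 against 276 ± 15.7 CPM (-5.57 ± 0.49, adjusted p = 1.31e-05), opposite in sign to Mx1. Without CD40 a, which held 18 of its CD40 counts, the log2 fold change of Bace2 was -6.55. Rnf144a, beside Rsad2, was likewise lower, at 3.47 ± 2.75 against 47.5 ± 0.214 CPM (-3.65 ± 0.44). Near the synthetases, Ddx54 (57.2 ± 1.46 against 50.9 ± 2.91 CPM) and Ptpn11 (78.6 ± 19.97 against 76.8 ± 4.24) were not called, and Rpl6 was higher (63.7 ± 6.51 against 32.4 ± 4.49). By the Oas-like pair, Ankrd13a was higher (36.1 ± 5.75 against 20.1 ± 4.83 CPM, adjusted p = 0.0361). That call did not hold under 8 of 12 alternatives (adjusted p 0.0270 to 0.180), among them those without Kupffer a, Kupffer b, CD40 a or CD40 d. The calls of Id2 (higher), Prdm15 and Kidins220 (both lower) were also lost without Kupffer a or without Kupffer b, with adjusted p up to 0.0948, 0.0770 and 0.0639 over their alternatives, and that of Kidins220 with DESeq2 too.

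Leaving out each library in turn, or changing the scaling, the filter or the test, left 6 of the 9 genes called as higher under all 12 alternatives: Oas1a, Oas3, Oasl1, Oasl2, Mx1 and Rsad2. Oas2 was called under 10, Cmpk2 under 3 and Mx2, as lower, under 2. No member changed sign under any of the 12.

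**Figure D5:**
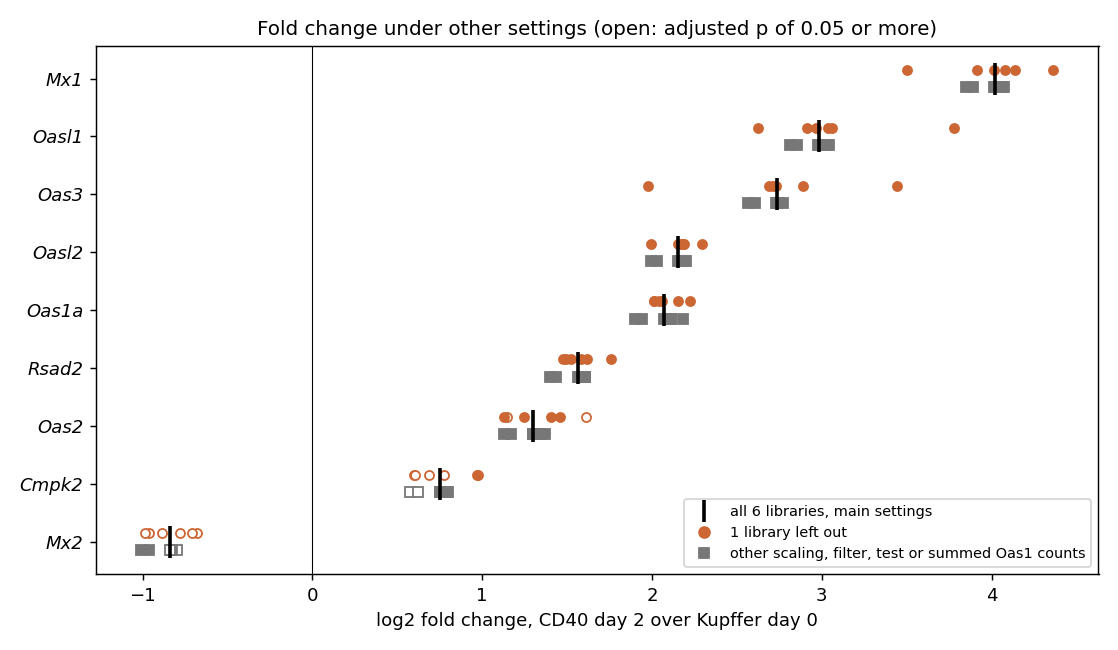
log2 fold change of each gene (x axis) with all 6 libraries (vertical bar), with 1 library left out (circles) and under another scaling, filter or test or with Oas1a and Oas1g summed (squares), open where the adjusted p was 0.05 or more. The points of Oas3 run from 1.98 to 3.45 and those of Oasl2 from 1.99 to 2.29, and open symbols occur only for Oas2, Cmpk2 and Mx2.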

How the data were processed

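The deposited file holds raw counts per gene symbol, as whole numbers. Per the labels' protocol, each RNA received a barcode and a unique molecular identifier before pooling. The submitters' processing notes name GRCm38.p6 and DESeq2 1.22.2. Which aligner and annotation the authors took is not given in the sources used here, nor whether identifiers were counted. Column names carry a group but no replicate number. The rows are sorted by Kupffer day 0 a, and the first column of each group left out falls over the same 25919 rows with only 1 step up.

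The 6 remaining libraries were fitted together with edgeR 4.0.16 (quasi-likelihood, TMM, filterByExpr, R 4.3.3) as a two-sided test, with p-values adjusted by Benjamini-Hochberg over all genes tested and called under 0.05. The script was checked only on simulated data with a common dispersion and few changed genes, evenly up and down. That setting differs from these data, where 53.4% of genes were called. The common biological coefficient of variation was 20.4%. The SE equals the log2 fold change divided by the root of F. Alternatives were RLE scaling, library totals, DESeq2 1.42.0, 2 other filters, leaving out each library and, chosen after seeing the data, summing Oas1a and Oas1g. Named genes were all members, the 4 with the lowest adjusted p in each list, cluster neighbours and the 5 most alike genes (mean of at least 20 CPM). Members and lists were chosen with earlier results of these data known. Some listed genes are not reported here.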

Additional observations from a re-analysis of the deposited data

How the results depend on the processing

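No paired analysis was possible because the columns carry no replicate numbers. Leaving out 1 library gave 1406 to 2551 higher and 1800 to 2963 lower genes, beside 2288 and 2974 with all 6. The low ends of both came without Kupffer day 0 a, where 1 Kupffer library is left and assumed to vary like the others. The same omissions gave 6 to 8 members higher. The number of members lower was 1, Mx2, with library totals and with at least 10 counts in 4 libraries, and 0 under the other alternatives. Library totals moved the median of all genes by -0.17 in log2. Of 61 named genes, Ptpn11, never called, changed sign: -0.12 with library totals, -0.080 with at least 10 counts in 4 libraries, and -0.14 (without CD40 day 2 c) to 0.17 (without CD40 day 2 b) with 1 library left out, also below 0 without Kupffer day 0 b. Low counts in Kupffer day 0, 14 for Mx1 and 30 for Oas3 over both libraries, limit those folds.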
